A study of Caenorhabditis elegans with 11 samples.

Results

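In the gonads of Caenorhabditis elegans that lack a working cup-4 gene, a small group of genes carried less antisense small RNA than in wild type. The group held 19 of the 46904 genes counted. A gene belonged to it when its antisense small RNA reached at least 10 CPM in every wild-type library and when its lowest wild-type value was at least 1.5 times its highest cup-4 value. CPM here is a gene's count scaled by the sum of all gene counts of its library. Of 6435 genes at 10 CPM or more in every wild-type library, 22 met the fold rule, a share of 0.342%. The genes haf-6, ugt-22 and osgn-1 met it too and are not members. The same rule with the genotypes exchanged was met by 100 genes. The genes were chosen by these small RNA values, which are therefore described without a test, and only mRNA, which the rule did not use, was tested.

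The gonads were dissected from day-one adults of strain N2, the wild type, and of the mutant strain RB950 with genotype cup-4(ok837). The gene is known for its part in the fluid uptake of coelomocytes, free scavenger cells in the body cavity, and the series' title connects a failure of scavenger cells with germline tumours that are inherited epigenetically. Each genotype had 3 small RNA libraries, in which reads antisense to a gene were counted. For mRNA there were 2 libraries of wild type (replicates 2 and 3) and 3 of the mutant. RB950 is a single mutant strain, and the labels do not say how many animals each library pools.

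In this nematode, RNA-dependent RNA polymerases copy messenger RNA into short antisense RNAs, which Argonaute proteins carry. Depending on the Argonaute, these small RNAs silence a gene in the nucleus or the cytoplasm, or mark it as licensed for expression in the germline. Such small RNAs can be amplified and passed to offspring. The deposited counts do not separate small RNA classes by length or first base, so the class behind each value is not known here.

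Gene counts summed to between 14858199 and 39310540 in a small RNA library and between 21290140 and 29559542 in an mRNA library. The mRNA of cup-4 (WBGene00000845) was 5.24 and 3.26 CPM in the wild-type libraries, and 1.08, 1.252 and 0.827 CPM in the mutant ones, in the direction of the labels. Markers of germline (11 genes) summed to 2625 to 4278 CPM of mRNA in wild type and 2713 to 3551 CPM in cup-4, and none of them was at 0. Intestine markers (9 genes, none at 0) summed to 4597 and 3286 CPM in wild type. Their cup-4 sums were 101149 (replicate 1), 20469 (replicate 2) and 32999 CPM (replicate 3), and 8 of the 9 were higher in every cup-4 library than in both wild-type libraries. Muscle markers (8 genes, none at 0) summed to 321 to 469 CPM and 623 to 2967 CPM, and 5 of the 8 were higher without overlap, as were 17.6% of the 12861 genes tested in mRNA. In such bulk samples a different number of cells of a type and a different amount of RNA per cell cannot be told apart.

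Together the 19 genes took 0.460%, 0.541% and 0.532% of the gene counts in the wild-type small RNA libraries, replicates 1, 2 and 3 in that order. In the mutant libraries they took 0.125%, 0.123% and 0.114%. The summed level thus went from 5110 ± 443 to 1203 ± 57.8 CPM (SD, n = 3 each). Most of this sum came from WBGene00007376, lido-15, F15D4.6 and T16H12.2, which made up 78.0% of it in wild type and 65.8% in cup-4. By the ratio of group means, 17 of the 19 genes were at least 2 times lower in cup-4, 9 at least 3 times, 5 at least 5 times and 2 at least 10 times.

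**Figure D1:**
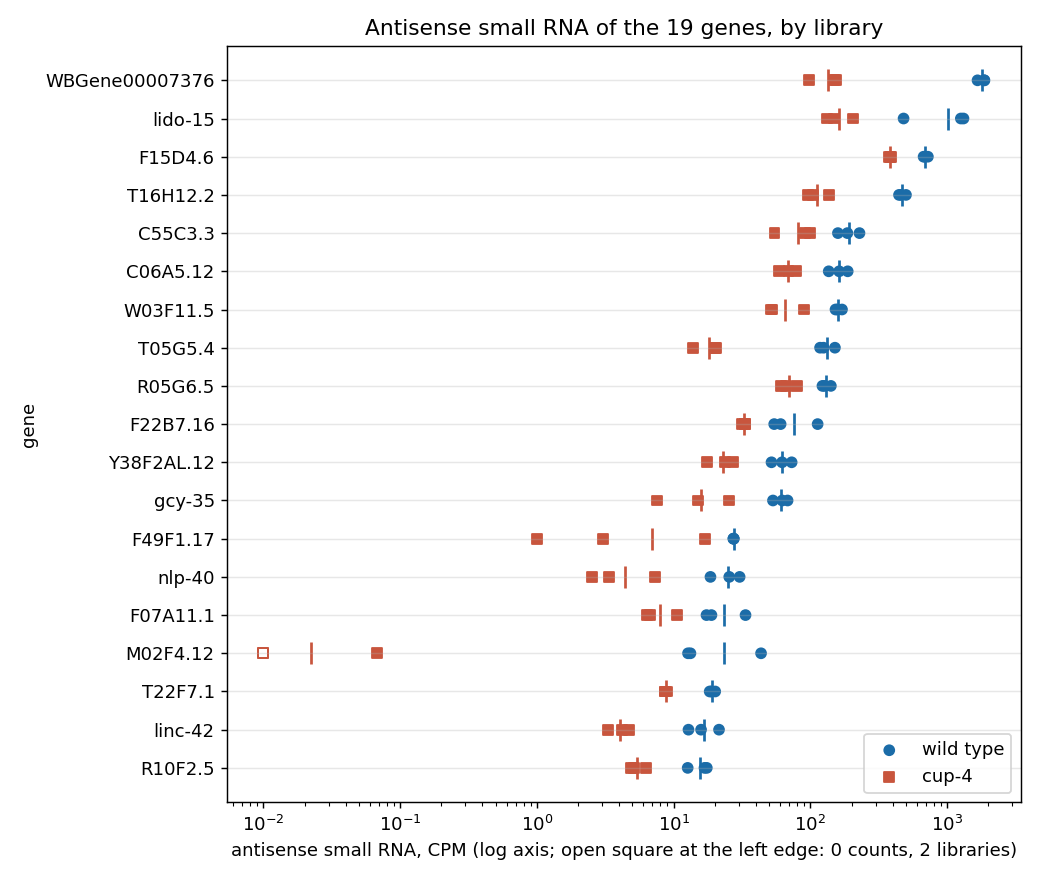
Antisense small RNA of the 19 genes in CPM on a log axis, with wild-type libraries as circles, cup-4 libraries as squares and the group means as vertical bars. The rule makes every gene's groups separate; the gap runs from 1.54 times between the nearest libraries for R05G6.5 to over 10 times for WBGene00007376 and M02F4.12.

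The non-coding members were M02F4.12 and F22B7.16, annotated as non-coding RNA, and linc-42, a long intergenic non-coding RNA. M02F4.12 (WBGene00202407) is a gene of 148 bases on chromosome X, from 3035964 to 3036111 in the RefSeq annotation of WBcel235, the assembly that the submitters' notes name as ce11. Its antisense small RNA was 43.6, 12.7 and 13.3 CPM in wild type and 0, 0.0673 and 0 CPM in cup-4, values being given here and below in the order of replicates 1, 2 and 3. It was close to absent from the mutant: the pooled cup-4 libraries held 1 count against 1650 in wild type, a ratio of 1068 between the pooled levels (95% exact interval 191 to 42214, for counting error only). The zeros of cup-4 replicates 1 and 3 allow up to 0.176 and 0.136 CPM. In wild type the gene varied more than most, with replicate 1 at 3.42 times replicate 2.

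F22B7.16 (WBGene00201631), 138 bases on chromosome III within the span of twk-7, had 54.4, 60.6 and 113 CPM of antisense small RNA in wild type and 33.2, 31.4 and 33.2 CPM in cup-4. The 3 mutant libraries lay within 1.06 times of each other, while wild-type replicate 3 stood above the other two. For linc-42 (WBGene00219718) the values were 21.5, 15.9 and 12.8 CPM in wild type and 3.29, 4.71 and 4.22 CPM in cup-4. The long gene twk-7 around F22B7.16 had mean antisense small RNA of 3.09 CPM in wild type and 4.24 CPM in cup-4. This is below the floor of 10 CPM, so twk-7 could not have met the rule.

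Among the 15 protein-coding members, gcy-35 and nlp-40 have well-known roles. Gene gcy-35 encodes a soluble guanylate cyclase that senses oxygen in neurons, and nlp-40 encodes a neuropeptide-like protein released from the intestine to time the defecation rhythm. Antisense small RNA of gcy-35 (WBGene00001555) was 53.2, 68.1 and 62.3 CPM in wild type and 7.51, 25.3 and 15.0 CPM in cup-4. That of nlp-40 (WBGene00022276) was 30.4, 25.5 and 18.6 CPM in wild type and 7.34, 3.37 and 2.54 CPM in cup-4. Both genes spread more widely among the mutant libraries than any other member apart from F49F1.17 and M02F4.12, with a highest cup-4 value 3.37 times the lowest for gcy-35 and 2.89 times for nlp-40.

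The members with the most antisense reads differed widely in how far they fell. WBGene00007376, an identifier without a symbol in the tables used here, had 1865, 1875 and 1669 CPM in wild type and 97.3, 149 and 155 CPM in cup-4. Its group mean was 13.5 times lower in the mutant, the largest ratio of a member with more than 3 counts in cup-4. For lido-15 (WBGene00018804) the values were 480, 1260 and 1317 CPM in wild type and 206, 149 and 132 CPM in cup-4. Wild-type replicate 1 was far below replicates 2 and 3, so that the fold between same-numbered libraries was 2.34 for number 1. It was 8.46 and 9.98 for numbers 2 and 3. F15D4.6 (WBGene00008863) had 688, 673 and 723 CPM in wild type and 391, 374 and 386 CPM in cup-4. It combined the smallest ratio of means in the set, 1.81, with tight replicates, whose standard deviations were 25.8 CPM in wild type and 8.36 CPM in cup-4. T16H12.2 (WBGene00011812) had 445, 460 and 500 CPM in wild type and 104, 136 and 96.0 CPM in cup-4, a mean 4.17 times lower.

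T05G5.4 (WBGene00011499) lost most of its antisense small RNA as well, with 151, 125 and 118 CPM in wild type and 20.0, 13.9 and 20.5 CPM in cup-4. Between same-numbered libraries it was 7.58, 9.01 and 5.73 times lower in cup-4. Its neighbour cdk-1, the main cyclin-dependent kinase of mitosis, ends 82 bases before it and had means of 368 and 290 CPM. The rule chose T05G5.4 for its loss and cdk-1 did not meet it, so the difference between these genes is a description only.

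C55C3.3, C06A5.12, W03F11.5 and R05G6.5 formed a middle group, for which no role is given here. C55C3.3 (WBGene00016953) had 159, 229 and 187 CPM in wild type and 100, 90.7 and 54.6 CPM in cup-4. C06A5.12 (WBGene00044414) had 188, 162 and 136 CPM against 69.1, 78.1 and 59.4 CPM. All 4 genes were between 1.88 and 2.47 times lower by group means. W03F11.5 (WBGene00021008) had 170, 157 and 153 CPM in wild type and 90.2, 51.5 and 52.8 CPM in cup-4. R05G6.5 (WBGene00019899) had 122.5, 141 and 127 CPM against 79.8, 66.6 and 61.3 CPM. In C55C3.3, W03F11.5 and R05G6.5 it was cup-4 replicate 1 that lay nearest to wild type, and in C06A5.12 it was replicate 2.

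Y38F2AL.12, F49F1.17, F07A11.1, T22F7.1 and R10F2.5 had fewer reads. Y38F2AL.12 (WBGene00219413) had 52.0, 62.1 and 73.0 CPM in wild type and 17.4, 23.7 and 27.3 CPM in cup-4. F49F1.17 (WBGene00235367) had 27.3, 27.6 and 27.4 CPM in wild type and 0.998, 3.03 and 17.0 CPM in cup-4. No other member was so even in wild type, where its libraries lay within 1.01 times of each other, or, M02F4.12 with its zeros aside, so uneven in the mutant, where they spanned 17 times. F07A11.1 (WBGene00008545) had 17.4, 18.9 and 33.6 CPM against 6.69, 10.6 and 6.39 CPM. T22F7.1 (WBGene00020701) had 20.1, 18.8 and 18.4 CPM against 8.63, 9.02 and 8.66 CPM, with narrow ranges in both genotypes. R10F2.5 (WBGene00019996) had 12.7, 16.8 and 17.5 CPM against 4.87, 5.12 and 6.26 CPM.

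The edge of the set was not a break in the data. Just inside the 1.5-fold threshold lay R05G6.5, C55C3.3 and F49F1.17, whose lowest wild-type value was 1.54, 1.59 and 1.61 times the highest cup-4 value. Just outside it lay exc-9, col-71 and F26A3.4, at 1.498, 1.492 and 1.490.

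The density of small RNA along the genes was compared per kilobase of annotated span, introns included, for the 18 members with an annotation. In wild type it was 889 CPM per kb for lido-15, 791 for F15D4.6, 551 for F22B7.16 and 527 for T16H12.2. At the other end it was 7.39 CPM per kb for gcy-35, 6.31 for F07A11.1, 4.65 for nlp-40 and 4.27 for T22F7.1. The 4 densest genes span at most 1147 bases and the 4 sparsest at least 3690 bases. The median span was 1164 bases in the 18 members and 2586 bases in 6023 annotated genes at the 10 CPM floor.

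The members had little mRNA in the gonad. In wild type their median mRNA level was 1.69 CPM, against 41.9 CPM over the 6435 genes at the floor, and 15 of 19 were below 5 CPM, against 23.9% of the 6435. Per kilobase of span, the medians were 0.782 CPM per kb for the 18 annotated members and 14.9 CPM per kb for the 6023 annotated genes at the floor. The median of small RNA CPM over mRNA CPM in the same gene was 92.2 in the 16 members with wild-type mRNA above 0, and 1.38 in 6252 genes at the floor. This ratio ranged from 2.39 for nlp-40 and 2.53 for T22F7.1 to 768 for F15D4.6, 771 for WBGene00007376 and 1226 for F49F1.17, where the mRNA rests on 1 count. Per kilobase of span, C55C3.3 had the most mRNA of the 18 annotated members, 11.6 CPM per kb, from a wild-type mean of 34.5 CPM. R10F2.5 and F22B7.16 had 0 mRNA counts in all 5 libraries, which allows up to 0.101 to 0.141 CPM depending on the library.

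**Figure D2:**
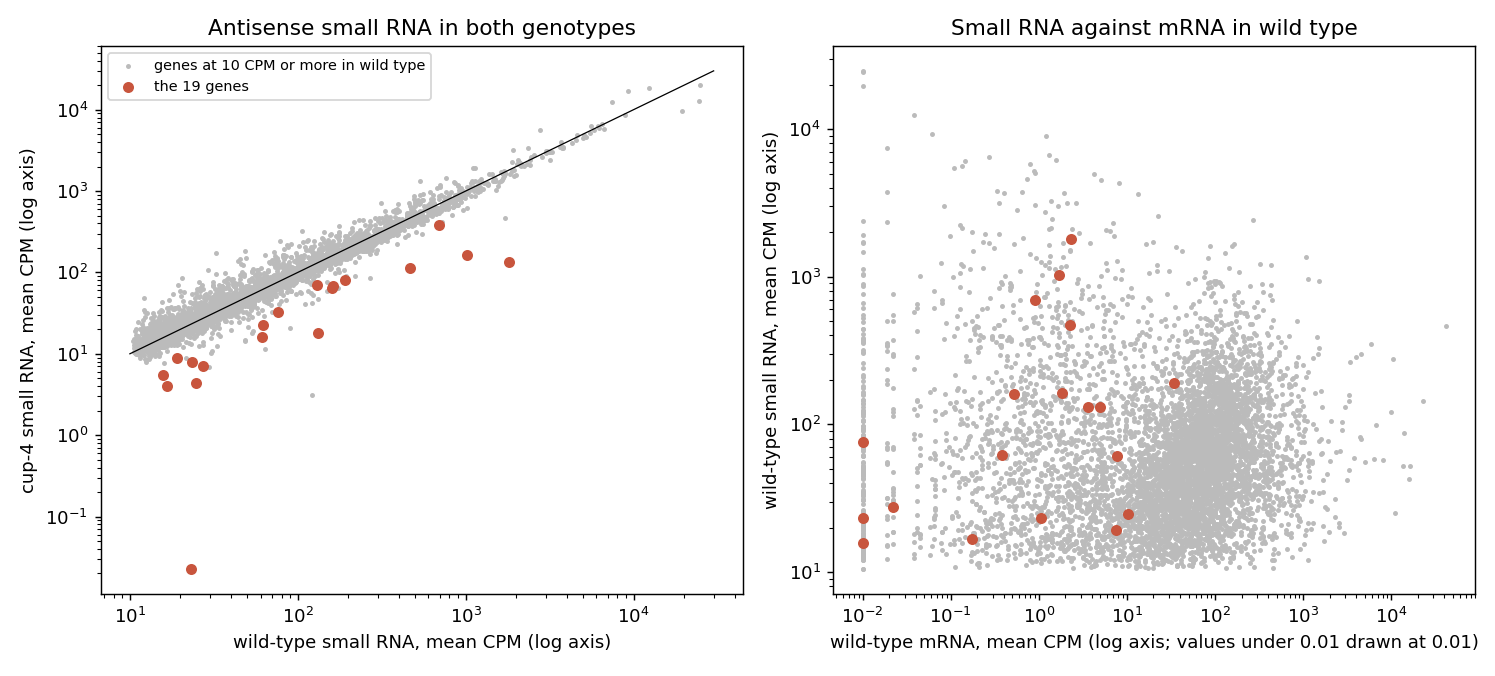
Left, mean antisense small RNA in cup-4 against wild type, and right, mean wild-type small RNA against mean wild-type mRNA, all in CPM on log axes, for 6435 genes at 10 CPM or more in every wild-type small RNA library (grey) and the 19 genes (red). The 19 lie below the line of equal level by construction, and 15 of them have under 5 CPM of wild-type mRNA.

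The members were spread over the genome. Of the 18 with a position, 6 were on chromosome III, 4 each on I and IV, 3 on II, 1 on X and 0 on V, the chromosome of 15.3% of annotated genes at the floor. By type, 15 of 18 were protein-coding and 3 non-coding, where 96.2% of the genes at the floor were protein-coding.

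One pair of members lay close together. R10F2.5 (chromosome III, 2923662 to 2924758) and linc-42 (2936109 to 2937002) are 11351 bases apart, and cdh-1, a cadherin gene, lies around the first and ends 148 bases before the second. Antisense small RNA of cdh-1 (WBGene00019994) was 170, 282 and 354 CPM in wild type and 136, 61.4 and 60.0 CPM in cup-4. Its groups did not overlap, but its lowest wild-type value was only 1.252 times its highest mutant value, so it missed the rule. The 3 genes of this stretch had means 2.89, 3.13 and 4.11 times lower in cup-4 for R10F2.5, cdh-1 and linc-42. Since R10F2.5 lies within cdh-1 and strand was not compared, these genes may not give separate values. The next gene at the floor beyond linc-42, H05C05.4, had means of 18.2 and 14.9 CPM.

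The gene at the floor nearest before gcy-35 is pde-1, which encodes a cyclic nucleotide phosphodiesterase, an enzyme that breaks down the kind of messenger that guanylate cyclases make. Antisense small RNA of pde-1 (WBGene00011433) was 426, 582 and 514 CPM in wild type and 310, 336 and 292 CPM in cup-4, without overlap and below the 1.5-fold rule. The mRNA of pde-1 was at most 0.498 CPM in any library and was not tested. T16H12.13, next to T16H12.2, had 14.1, 84.7 and 53.7 CPM of small RNA in wild type and 17.96, 33.7 and 12.3 CPM in cup-4, and its groups overlapped. On the other side of T16H12.2, at 17 bases, hal-2, a factor for meiotic chromosome pairing, had means of 433 and 401 CPM. Over the 35 nearest neighbours at the floor that were not members, 19 had a lower mean in cup-4 and the median log2 ratio was -0.06, against 0.0066 over the 6435 genes. Neighbours were taken from gene order without strand.

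The question of whether genes that lost antisense small RNA also changed in mRNA was put to the 13 members with enough mRNA reads for a test. The other 6 (M02F4.12, F22B7.16, linc-42, R10F2.5, Y38F2AL.12 and F49F1.17) did not pass the filter on low counts, and none of them exceeded 0.537 CPM in any mRNA library. In edgeR's quasi-likelihood test across 12861 genes, 0 of the 13 had an adjusted p under 0.05, as did 0.0% of all genes tested, where the smallest adjusted p was 0.122. Limma-voom also called 0 members, and DESeq2 called 2, WBGene00007376 higher and T22F7.1 lower, against 5.8% of all genes higher and 2.42% lower. At an unadjusted p under 0.05 there were 3 members lower (T22F7.1, gcy-35 and C55C3.3), against 6.35% of all genes, and 1 higher (WBGene00007376), against 10.8%. This count of 4 went down to 1 when wild-type replicate 3 was left out, and to 2 when cup-4 replicate 3 was. The log2 fold change was below 0 in 6 and above 0 in 7 of the 13, with a median of 0.036 (0.16 over all genes tested). When single libraries were left out, that median ranged from -0.56 without wild-type replicate 3 to 0.032 without cup-4 replicate 3. It thus has no stable sign. The -0.56 also counts Y38F2AL.12, which passed the filter only in that fit.

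WBGene00007376 was the member whose mRNA stood furthest above wild type. This gene has no annotated position here, so its overlap with other genes was not checked. Its mRNA was 2.69 and 1.99 CPM in wild type, whose libraries are replicates 2 and 3, and 9.82, 9.68 and 10.6 CPM in the mutant. Every mutant library was above both wild-type libraries. Its log2 fold change of 2.21 ± 0.33 (SE) did not pass in edgeR, where the adjusted p was 0.122. It passed with the replicate block (adjusted p 0.0477, 1.49% of all genes called higher), without a filter on low counts (0.0148, 1.21% called higher) and in DESeq2 (1.84e-06). Over all alternatives the log2 fold change stayed between 2.07 and 2.29 and the adjusted p between 1.84e-06 and 0.299. Intestine markers were also higher in cup-4, with the sums given above, and their part in this difference was not tested.

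A further 3 members had less mRNA in cup-4 by unadjusted p. The mRNA of T22F7.1 was 6.18 and 8.93 CPM in wild type and 2.26, 2.74 and 2.07 CPM in cup-4, or -1.62 ± 0.40 (SE) as log2 fold change (edgeR, adjusted p 0.154). For gcy-35 it was 7.92 and 7.55 CPM in wild type and 2.21, 4.57 and 1.65 CPM in cup-4, or -1.40 (SE 0.47, adjusted p 0.218). In both genes the mRNA of the genotypes did not overlap. Small RNA was lower in the mutant as well, which the rule fixes for every member. The span of gcy-35 overlaps those of T04D3.5 and casc-3, whose mRNA is more abundant and was lower in the mutant too by group means (605 and 314 CPM for T04D3.5, 34.2 and 20.4 CPM for casc-3). Whether mRNA was counted by strand is not given in the sources used here, so the mRNA of gcy-35 is uncertain. For C55C3.3 mRNA was 18.1 and 50.9 CPM in wild type and 16.02, 13.7 and 9.75 CPM in cup-4, or -1.36 (SE 0.52, adjusted p 0.264). This value rested on wild-type replicate 3, without which the log2 fold change was -0.30 (adjusted p 0.799). Leaving out any 1 library moved T22F7.1 between -1.97 and -1.24 and gcy-35 between -1.89 and -1.14. In DESeq2 T22F7.1 passed with an adjusted p of 0.00589, in a range up to 0.341 over its alternatives, and gcy-35 did not (0.0639).

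**Figure D3:**
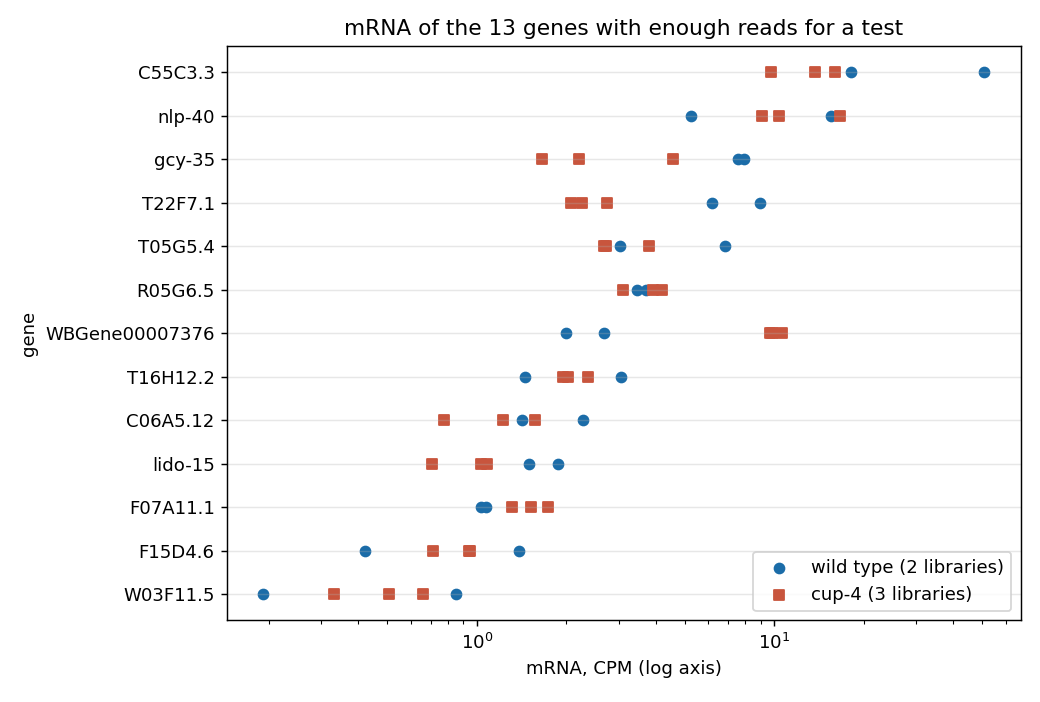
mRNA of the 13 tested genes in CPM on a log axis, wild-type libraries as circles and cup-4 libraries as squares. WBGene00007376 lies to the right of wild type in all 3 cup-4 libraries, T22F7.1, gcy-35, C55C3.3 and lido-15 to the left, and most other genes overlap.

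Between the genotypes the mRNA CPM did not overlap in 6 of the 13 members (5 with TMM-scaled library sizes). The 6 are 46.2% of the members tested, against 35.4% of all genes tested. Lower in cup-4 were 4 (T22F7.1, gcy-35, C55C3.3 and lido-15), against 17.8% of all genes tested, and higher were 2 (WBGene00007376 and F07A11.1), against 17.6%. In lido-15 mRNA was 1.88 and 1.495 CPM in wild type and 0.705, 1.08 and 1.03 CPM in cup-4, or -0.75 ± 0.52 (SE) as log2 fold change (edgeR, adjusted p 0.523). In F07A11.1 it was 1.03 and 1.07 CPM in wild type and 1.32, 1.52 and 1.74 CPM in cup-4, or 0.62 (SE 0.53, adjusted p 0.612). The mRNA of F07A11.1 is uncertain for the same reason, since it overlaps ints-7, which has far more mRNA (means of 187 and 161 CPM).

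In the other tested members the genotypes overlapped. T05G5.4, with its strong loss of small RNA, had mRNA of 6.85 and 3.03 CPM in wild type and 2.68, 3.79 and 2.73 CPM in cup-4, or -0.56 ± 0.43 (SE) as log2 fold change (edgeR, adjusted p 0.570). T16H12.2 had 3.04 and 1.46 CPM against 2.02, 2.37 and 1.94 CPM, or 0.036 (SE 0.48, adjusted p 0.982), a value whose sign changed in 9 of 13 alternatives. The intestinal neuropeptide gene nlp-40 had 15.5 and 5.25 CPM in wild type and 16.6, 9.10 and 10.4 CPM in cup-4, or 0.39 (SE 0.51, adjusted p 0.756). Its wild-type libraries differed by more than the group means. Without wild-type replicate 2 its log2 fold change was 1.18, without wild-type replicate 3 it was -0.19 and without cup-4 replicate 1 it was -0.067. C06A5.12, F15D4.6, W03F11.5 and R05G6.5 had log2 fold changes between -0.50 and 0.14, with adjusted p of 0.715 to 0.968. T05G5.4, W03F11.5 and R05G6.5 overlap T05G5.5, ule-1 and plc-4, which had wild-type mRNA means of 58.5, 89.4 and 41.8 CPM, so their mRNA values carry the same uncertainty. So does that of C06A5.12, which overlaps C06A5.2 (mRNA means of 1.66 CPM in wild type and 2.06 CPM in cup-4).

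**Figure D4:**
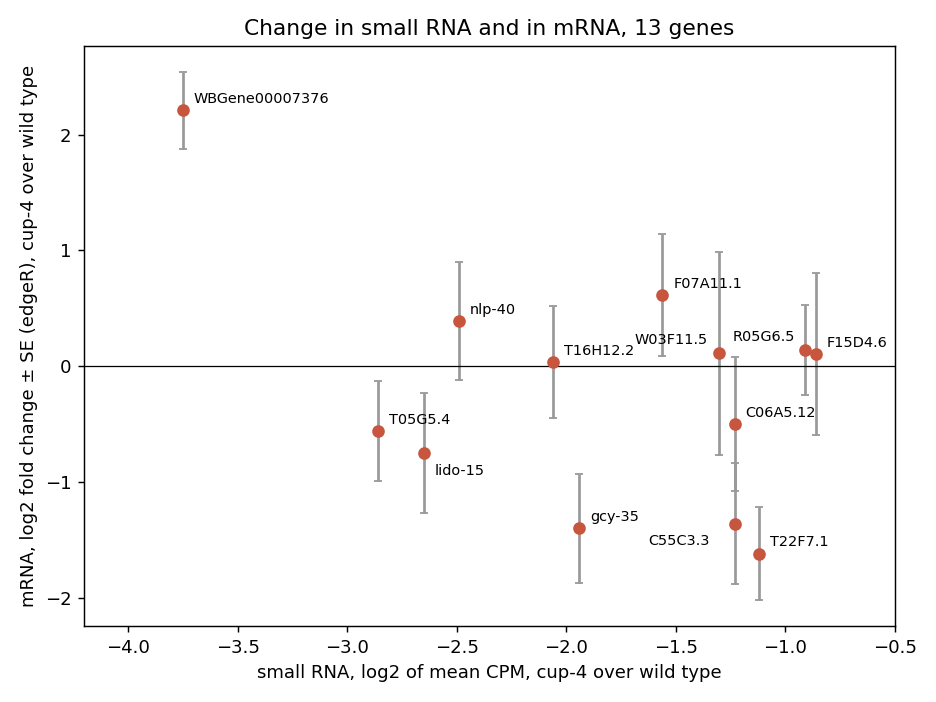
Log2 fold change in mRNA (edgeR, bars show 1 SE) against the log2 ratio of mean antisense small RNA, cup-4 over wild type, for the 13 tested genes. WBGene00007376 stands alone at the upper left, with -3.75 in small RNA and 2.21 in mRNA, and the other 12 show no common direction in mRNA.

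Across the 13 members the change in small RNA and the change in mRNA had a Pearson r of -0.47 and a Spearman rho of -0.20. Without WBGene00007376 these were -0.01 and 0.02 over 12 members. Members share their libraries and are not replicates, and the negative value rests on that gene. The rule admitted only genes with lower small RNA, which cuts the range of that change. These values therefore cannot decide whether the changes in small RNA and mRNA are related. No tested member other than WBGene00007376 had a log2 fold change in mRNA above 0.62.

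The genes that make and carry small RNA were examined from a list of 78 (polymerases and Dicer partners, mutator factors, Argonautes, nuclear inheritance factors, piRNA factors, germ granule genes and double-stranded RNA transport genes). Of these, 75 were matched and tested in mRNA, no member of the set was among them, and 0 passed in edgeR. At an unadjusted p under 0.05 were 5 lower and 4 higher, or 12.0% of the list against 17.2% of all genes tested, and the list's median log2 fold change was 0.10. The lowest p belonged to haf-6, a half-molecule ABC transporter needed for efficient RNA interference, which also met the small RNA rule. Its mRNA was 122.3 and 189 CPM in wild type and 30.4, 26.2 and 39.5 CPM in cup-4, or -2.21 ± 0.34 (SE) as log2 fold change (edgeR, adjusted p 0.122, and 0.0180 with the replicate block, where 0.0544% of all genes were called lower).

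The next 3 genes by p were sid-2, which takes up double-stranded RNA from the gut lumen, tofu-5, a piRNA factor, and sago-1, an Argonaute of secondary small RNAs. The mRNA of sid-2 was 1.07 and 0.498 CPM in wild type and 3.29, 3.25 and 2.85 CPM in cup-4, or 2.12 ± 0.53 (SE) as log2 fold change (edgeR, adjusted p 0.155). It differed in the same direction as the intestine markers, whose part in it was not tested. For tofu-5 mRNA was 108 and 85.6 CPM in wild type and 43.7, 61.3 and 58.6 CPM in cup-4, or -0.74 (SE 0.19, adjusted p 0.159). For sago-1 it was 6.63 and 6.90 CPM in wild type and 17.7, 12.9 and 13.7 CPM in cup-4, or 1.22 (SE 0.32, adjusted p 0.163). These 3, named for their low p, did not overlap between genotypes, and neither did 35.4% of all genes tested. None of the 3 passed with the replicate block. DESeq2 called 3 lower and 2 higher genes of the list, beside 2.42% of all genes lower and 5.8% higher. Among those called were haf-6, sid-2, tofu-5 and sago-1.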

How the data were processed

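The authors deposited 2 tables of raw read counts per gene, 1 for antisense small RNA (6 libraries) and 1 for mRNA (5 libraries), under 46904 WormBase identifiers. The submitters' processing notes name FastQC, cutadapt, HISAT2, HTSeq, DESeq2 and build ce11; versions, annotation and read-length filters are not given in the sources used here. Rows of unassigned reads (44.0% to 49.1% of small RNA and 13.4% to 23.8% of mRNA reads) entered neither library sizes nor tests. In mRNA 5.54% to 13.0% of reads aligned to several places. Symbols matched 44017 identifiers, and RefSeq positions 18 of the 19 members. All members are named, beside the 3 genes just outside the threshold and the 4 pathway genes of lowest mRNA p. Neighbouring genes (cdh-1, pde-1, T16H12.13, hal-2, cdk-1 and H05C05.4) were picked after their values were seen. So were overlapping genes (twk-7, ints-7, T04D3.5, casc-3, T05G5.5, ule-1, plc-4 and C06A5.2). The members, lists and tests were chosen with earlier results of these data known.

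Levels are CPM on gene totals. Only mRNA was tested, with genotype alone in the quasi-likelihood F test of edgeR 4.0.16 (R 4.3.3), TMM scaling, filterByExpr and Benjamini-Hochberg adjustment over all genes tested, threshold 0.05. SE is the absolute log2 fold change over the square root of F. Exact binomial (Clopper-Pearson) intervals and floors of 3 counts cover counting error only. On simulated data for this comparison (12861 genes) the test called 61.1% of genes changed by 3 on the log2 scale and 20% of those changed by 1.5. The changed genes were drawn at random from all genes tested. They were not matched to the low mRNA of the members, so the rates for members are not known. Alternatives were DESeq2 1.42.0, limma-voom (limma 3.58.1), RLE factors, total counts, other filters and thresholds, batches 2 and 3 alone, single libraries left out, and the replicate block.

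Same-numbered replicates were taken as 1 batch from the numbers in the sample titles. The titles do not say whether these samples were handled together. Deviations from genotype means correlated at 0.14, 0.11 and 0.14 in small RNA batches 1, 2 and 3. In mRNA batches 2 and 3 they correlated at -0.11 and 0.54, where the 2 wild-type deviations mirror each other. Pairs of unlike number ran from -0.20 to 0.09 in small RNA and from -0.54 to 0.50 in mRNA. No library repeated another: between replicates the chi-square over its degrees of freedom was at least 17.8. The labels name biological replicates, but not the separate cultures behind them.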

Additional observations from a re-analysis of the deposited data

How the results depend on the processing

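The membership depends on the rule's settings. The number of genes was 33 with TMM-scaled library sizes, 34 with RLE size factors, 50 at the looser fold threshold, 36 with the replicate block (the 1.5-fold ratio asked within each batch), and 24 to 66 without 1 small RNA library, most without wild-type replicate 1. All 19 members were among them, which the construction fixes for the looser threshold, the ratio within batches and the sets without 1 library, since none of these can remove a member. A fold threshold of 2 left 10, and a floor of 50 CPM left 12. In mRNA 0 members were called in edgeR, 1 with the replicate block, 2 in DESeq2 and 1 without a filter, and 0 without any 1 library. Without 1 library, 1 to 4 members had an unadjusted p under 0.05 and 6 to 11 did not overlap, where fewer libraries make separation easier. Of the small RNA pathway genes 1 was called with the replicate block and 5 in DESeq2. The replicate block changed no other mRNA call among the members and the pathway genes. Over all genes tested it called 0.0544% lower and 1.49% higher, against 0.0% without it.

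The sign of the mRNA log2 fold change held in every alternative with a value for 8 of the 13 tested members. It changed in 24 of 163 combinations of gene and alternative. The genes concerned had main values from 0.036 (T16H12.2) to 0.39 (nlp-40), and the cause was not tested. For T16H12.2 the log2 fold change was -0.045 in DESeq2 and with RLE size factors, and -0.090 under total counts. Without a filter it was -0.014, and -0.018 where a mean of 50 counts was required. Under total counts it was -0.058 for F15D4.6 and -0.057 for W03F11.5, and with the replicate block -0.014 for W03F11.5. Batches 2 and 3 alone, the same libraries as without cup-4 replicate 1, gave -0.077 for T16H12.2, -0.067 for nlp-40, -0.090 for F15D4.6, -0.30 for W03F11.5 and -0.045 for R05G6.5. Without 1 library the values ran from -0.37 to 0.49 for T16H12.2, -0.19 to 1.2 for nlp-40, -0.50 to 1.0 for F15D4.6, -0.61 to 1.3 for W03F11.5 and -0.045 to 0.27 for R05G6.5. Genes of few reads, such as W03F11.5, have no value under the stricter filters. In mRNA 6 members had too few reads for a test, and wild type had only 2 libraries.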
